A study of Mus musculus with 6 samples.

Results

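The 10 genes described here are associated with alternative activation of macrophages, with monocytes or with the matrix these cells make: Chil3, Retnla, Wfdc17, Wfdc21, Mgl2, Ly6c2, Plac8, Nos2, Vcan and Fn1. They were taken as a named list from a table of 55291 genes in 6 mouse liver tumours, and all 10 were in it. The list was selected on the levels of these genes in the same 6 tumours, compared between the same groups. Their levels and differences are therefore given as a description, with the spread between tumours and no test.

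Alternative activation is the state that macrophages take on under interleukin 4 and interleukin 13. These cytokines bind receptors that share the Il4ra chain, Janus kinases then phosphorylate the transcription factor Stat6, and Stat6 switches on secreted proteins such as Chil3, Retnla and arginase 1. Classical activation by interferon gamma and microbial products instead switches on Nos2, which uses the same amino acid, arginine, to make nitric oxide. In tumours, macrophages renewed from Ly6c2-positive blood monocytes can show features of both states, and Chil3 is also made by neutrophils and their precursors.

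Polyadenylated RNA was sequenced from liver tumours named RIL-175/PD-1R, after a hepatocellular carcinoma line of the mouse. The group Cre_PD1 holds 3 tumours from LysM-Cre mice and the group MKO_PD1 holds 3 tumours from Trem2-MKO mice, and both groups had received anti-PD-1, so no untreated tumour enters the comparison and the Cre_PD1 tumours are the controls. LysM-Cre expresses the recombinase from the lysozyme 2 gene in macrophages, monocytes and neutrophils, and Trem2 encodes a lipid-sensing receptor of macrophages. Age, sex, strain and dose are not stated in the labels used here. Values are length-normalised transcript levels (TPM), each library rescaled to a total of 1000000. Between 26747481 and 34265123 reads per library could be recovered from the values. In whole tumour RNA, fewer cells of a type and less RNA per cell cannot be told apart.

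The targeted gene, Trem2, measured 10.5, 16.5 and 14.9 TPM in the Cre_PD1 tumours and 7.68, 18.0 and 6.81 TPM in those labelled MKO_PD1. The groups overlapped, because MKO_PD1 replicate 2 had the highest level of all 6. Relative to the mean of 14 pan-macrophage genes in the same tumour, Trem2 was lower in every MKO_PD1 tumour, at -3.88 ± 0.24 against -2.99 ± 0.17 on the log2 scale (SD, n = 3 per group). So were 65.5% of the 16506 genes that reached 1 TPM in 3 or more tumours, so this ratio does not set Trem2 apart. Relative to the mean of all those genes, the groups overlapped for Trem2, at -0.26 ± 0.48 in MKO_PD1 against -0.12 ± 0.31 in Cre_PD1. MKO_PD1 replicate 2 also held the most macrophage marker RNA, 7421 TPM summed over the list against 2975 to 3885 TPM in the other tumours. The tumours differed in tissue content as well. Hepatocyte markers summed to 140075, 34650 and 95832 TPM in MKO_PD1 and to 12651 to 29979 TPM in Cre_PD1, while tumour epithelial markers were lower, 2476 to 9873 TPM against 18144 to 24736 TPM.

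RefSeq promoter entries (build GRCm38.p6) matched 7 of the 10 genes, not Wfdc21, Nos2 and Fn1. Those of the 3 genes that gave the group its name are shown, because Retnla and Chil3 are textbook targets of Stat6. Each runs 5′ to 3′ towards the gene, from 250 bases before the RefSeq start to the base before the gene's start in GENCODE M21. Capitals mark TTCNNNNGAA, the spacing that Stat6 prefers, or TTCNNNGAA, the spacing of other Stat factors; both patterns are their own reverse complements, so each search covers both strands.
Retnla, plus strand, chr16:48842359-48842550: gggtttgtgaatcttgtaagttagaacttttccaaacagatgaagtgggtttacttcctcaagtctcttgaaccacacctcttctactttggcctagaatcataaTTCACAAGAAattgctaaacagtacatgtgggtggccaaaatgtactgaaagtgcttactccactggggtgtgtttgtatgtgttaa
Chil3, minus strand, chr3:106167565-106167814: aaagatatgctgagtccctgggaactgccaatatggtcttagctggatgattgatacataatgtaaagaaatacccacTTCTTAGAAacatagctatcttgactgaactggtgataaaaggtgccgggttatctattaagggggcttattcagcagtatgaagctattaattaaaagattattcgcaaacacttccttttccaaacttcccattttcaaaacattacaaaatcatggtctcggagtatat
Wfdc17, plus strand, chr11:83703806-83703990: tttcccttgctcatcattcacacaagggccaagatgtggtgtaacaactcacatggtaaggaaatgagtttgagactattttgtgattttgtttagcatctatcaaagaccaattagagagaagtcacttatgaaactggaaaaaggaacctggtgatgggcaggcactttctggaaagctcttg
The Retnla window holds the Stat6 spacing at 145 to 136 bases before the RefSeq start, and the Chil3 window holds the shorter spacing at 172 to 164 bases. Wfdc17 holds neither pattern in its 250 bases. Among the other promoters of the 10 genes, the Stat6 spacing occurs in 1 of the 2 promoters of Plac8, and neither pattern occurs in those of Mgl2, Vcan and Ly6c2. For comparison, 5.85% of 32851 RefSeq mouse promoters hold the Stat6 spacing and 7.02% the shorter one within 250 bases. A match of letters is a description and not a binding site.

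Of the 10 genes, 5 were higher in every MKO_PD1 tumour than in any Cre_PD1 tumour: Chil3, Retnla, Wfdc17, Wfdc21 and Ly6c2. Only Plac8 was lower in every MKO_PD1 tumour, and Mgl2, Nos2, Vcan and Fn1 overlapped between the groups. 9 of the 10 genes, all but Retnla, were among the 16506 genes that reached 1 TPM in 3 or more tumours. Over those 16506, 10.1% were separated upwards in this way and 28.9% downwards, and a moderated test (limma) with Benjamini-Hochberg adjustment passed 0.0121% of them at 0.05. Without MKO_PD1 replicate 2, the tumour with the highest Trem2, the count among the 10 was 5 upwards and 3 downwards, where 14.1% of 15940 genes were separated upwards and 62.1% downwards. The genes of the list came from this contrast, so nothing is read from the counts.

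**Figure D1:**
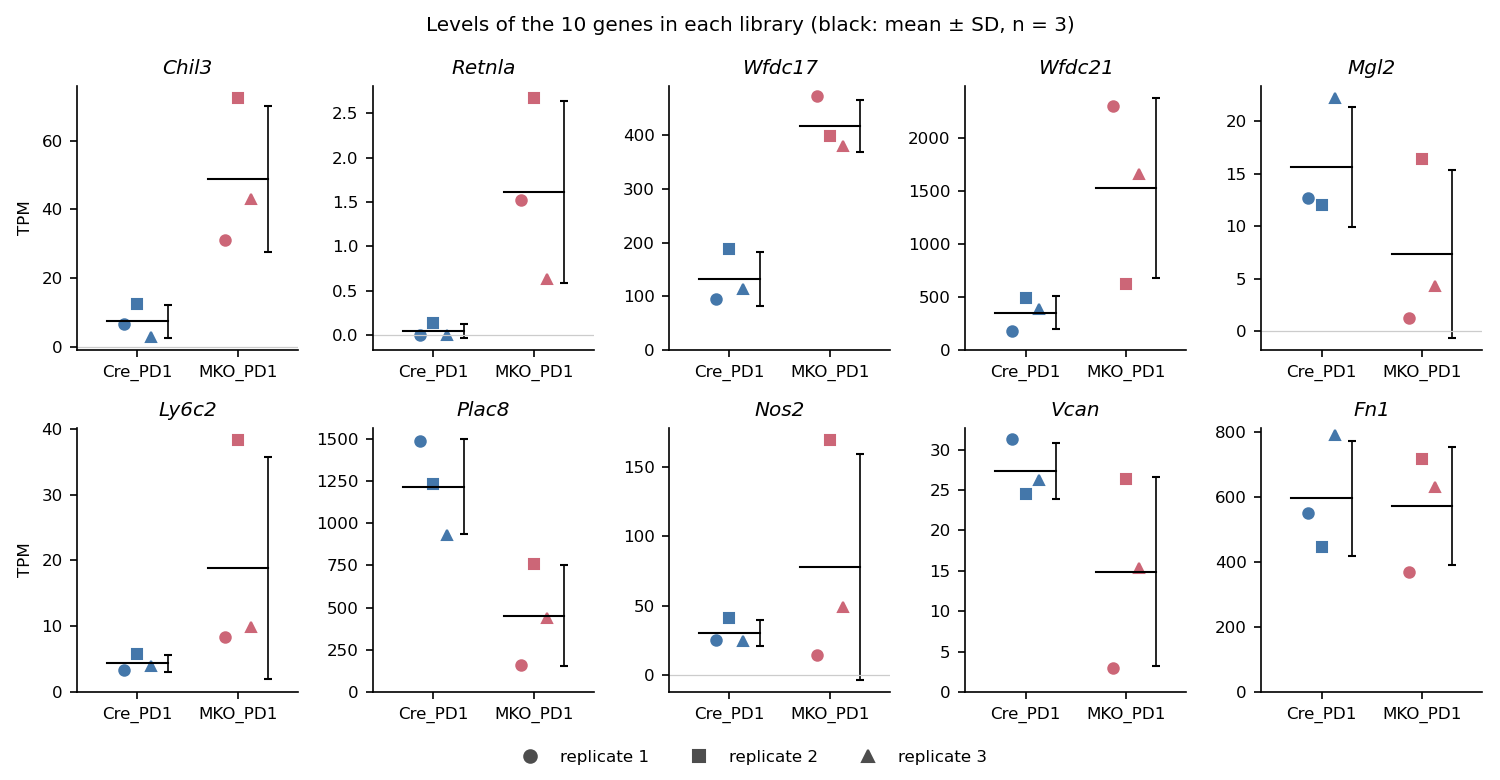
TPM of each of the 10 genes (vertical axes, linear, a separate scale for each gene) in the 3 Cre_PD1 tumours (blue) and the 3 MKO_PD1 tumours (red), with marker shapes for the replicate number and black lines for the mean and SD. Chil3, Retnla, Wfdc17, Wfdc21 and Ly6c2 are separated upwards and Plac8 downwards; the other 4 overlap.

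Chil3 encodes a secreted chitinase-like lectin, Ym1, that binds glycans without cutting chitin (gene at chr3:106147554-106167564, minus strand). Its level was 6.81, 12.6 and 2.94 TPM in the controls and 31.2, 72.4 and 42.9 TPM in the MKO_PD1 tumours. The lowest MKO_PD1 tumour stood above the highest Cre_PD1 tumour. Means were 7.43 ± 4.84 and 48.8 ± 21.2 TPM (SD, n = 3), a 6.57-fold ratio, and the difference of log2(TPM + 1) was 2.65 (SE 0.50). Without MKO_PD1 replicate 2 it was 2.33. Of the tested genes, 10 (0.0606%) lay at least as far in that direction, a description only, because the list was selected on this contrast. The recovered reads behind these values were 113, 246 and 42 in Cre_PD1 and 667, 1180 and 740 in MKO_PD1. Of the gene's 50-base transcript windows, 16.9% also occur in Chil4, the closely related Ym2 gene, whose own level was 0.207 TPM or less in every tumour.

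Retnla encodes resistin-like alpha, also called FIZZ1, a cysteine-rich protein secreted by alternatively activated macrophages and by airway epithelium (chr16:48842551-48844461, plus strand). It was close to the limit of detection. No read fell on it in Cre_PD1 replicates 1 and 3 and 1 read in replicate 2, against 12, 16 and 4 reads in MKO_PD1. In TPM these are 0, 0.139 and 0 against 1.53, 2.67 and 0.631. All MKO_PD1 tumours were above all Cre_PD1 tumours. Summed over each group, 1 read against 32 gives a ratio of 29.4 after scaling by each group's total of length-normalised signal, with an exact 95% interval of 4.91 to 1197. That interval treats the reads of each group as 1 pool and covers counting error only, since reads carry no molecular identifiers. It leaves out the spread between tumours and is no test of the groups.

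Wfdc17 and Wfdc21 lie close together on chromosome 11 and encode small secreted proteins with a whey acidic protein domain, a fold found in protease inhibitors. Wfdc17, also known as AMWAP, dampens inflammatory activation of macrophages (chr11:83703991-83706268, plus strand). It measured 94.8, 189 and 113 TPM in the controls and 472, 398 and 380 TPM in the MKO_PD1 tumours. The MKO_PD1 tumours lay close together, within 1.24-fold of each other, and well apart from the controls. The means, 132 ± 49.7 and 417 ± 48.6 TPM (SD, n = 3), differed 3.15-fold, or 1.70 (SE 0.31) on the log2 scale.

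Wfdc21 (chr11:83746940-83752642, plus strand) was the most abundant of the 10 by mean TPM. Its levels were 181, 488 and 391 TPM in the controls and 2303, 620 and 1661 TPM in the MKO_PD1 tumours. The groups did not overlap, but MKO_PD1 replicate 2 was far closer to the controls than to the other MKO_PD1 tumours, unlike for Wfdc17. Means were 353 ± 157 and 1528 ± 850 TPM, 4.33-fold apart, with a log2 difference of 2.03 (SE 0.56). With MKO_PD1 replicate 2 as the only MKO_PD1 tumour, the log2 difference was 0.93. The order of the 6 tumours was also that of the mean log2 level of 20 hepatocyte genes, and the log2 ratio of Wfdc21 to that mean was -0.12 ± 0.26 in Cre_PD1 and 0.14 ± 0.23 in MKO_PD1, with overlapping groups.

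Ly6c2 encodes the anchored surface protein by which classical monocytes are sorted (chr15:75108158-75111970, minus strand). It was at 3.34, 5.80 and 3.91 TPM in the controls and 8.40, 38.3 and 9.90 TPM in the MKO_PD1 tumours. The groups were separated, with MKO_PD1 replicate 2 several times above the other 2 MKO_PD1 tumours. Mean levels were 4.35 ± 1.29 and 18.9 ± 16.9 TPM, 4.34-fold apart, and the log2 difference of 1.60 (SE 0.55) was 0.95 without that tumour.

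Plac8, a small cysteine-rich protein of myeloid cells that is also made by some epithelial tumours, went the other way (chr5:100553725-100572245, minus strand). Its levels were 1488, 1228 and 928 TPM in the controls and 160, 758 and 437 TPM in the MKO_PD1 tumours. Every MKO_PD1 tumour was below every control. The means of 1215 ± 280 and 452 ± 299 TPM were 2.69-fold apart, a log2 difference of -1.66 (SE 0.55), or -0.65 with MKO_PD1 replicate 2 alone. As a percentage of the summed TPM of the 10 tumour epithelial markers, Plac8 amounted to 6.02, 6.73 and 5.11 in Cre_PD1 and 6.48, 7.68 and 6.57 in MKO_PD1. On that measure the groups overlapped, at 5.95 ± 0.81 and 6.91 ± 0.67 (SD, n = 3).

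Mgl2 encodes the galactose-type lectin CD301b of alternatively activated macrophages and of a set of dendritic cells (chr11:70130329-70137550, plus strand). In contrast to the secreted proteins above, it was not higher in MKO_PD1. Levels were 12.7, 12.0 and 22.2 TPM in the controls and 1.27, 16.4 and 4.29 TPM in the MKO_PD1 tumours. MKO_PD1 replicates 1 and 3 were below all controls and replicate 2 was within their range. The log2 difference was -1.43 (SE 0.68), and it was -2.21 without MKO_PD1 replicate 2 and 0.12 with that tumour alone.

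Nos2, the inducible nitric oxide synthase of classically activated macrophages (chr11:78920787-78960254, plus strand), was measured at 25.6, 41.0 and 24.5 TPM in the controls and 14.7, 169 and 49.3 TPM in the MKO_PD1 tumours. The lowest and the highest value both came from MKO_PD1. The group means were 30.4 ± 9.23 and 77.8 ± 81.1 TPM, and the log2 difference of 0.75 (SE 0.75) changed sign to -0.12 without MKO_PD1 replicate 2.

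A pair of matrix genes completes the list. Vcan encodes versican, a large chondroitin sulphate proteoglycan made by stroma and by monocytes (chr13:89655312-89742509, minus strand). It was at 31.3, 24.5 and 26.3 TPM in the controls and 2.98, 26.3 and 15.4 TPM in the MKO_PD1 tumours, a log2 difference of -1.22 (SE 0.64) with overlapping groups. With MKO_PD1 replicate 2 alone that difference was -0.05. Fn1, fibronectin, the adhesive matrix protein bound by integrins (chr1:71585520-71653200, minus strand), was at 551, 446 and 790 TPM in the controls and 368, 717 and 631 TPM in the MKO_PD1 tumours. Its groups overlapped almost fully, with means of 596 ± 177 and 572 ± 182 TPM and a log2 difference of -0.07 (SE 0.36), and 70.3% of tested genes lay at least as far below 0.

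The 10 genes did not follow a single course across the 6 tumours. Distances between genes were taken as the root-mean-square difference of log2(TPM + 1) over the 6 tumours after subtracting each gene's mean, so that 0 means the same course. The nearest pair was Plac8 with Vcan at 0.33, and Mgl2 lay 0.44 from Vcan. Wfdc17 lay 0.46 from Retnla, whose course rests on few reads, 0.60 from Wfdc21 and 0.74 from Chil3. Ly6c2 and Nos2, which both peaked in MKO_PD1 replicate 2, were 0.64 apart. The members share these 6 libraries, and the distances are a description.

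**Figure D2:**
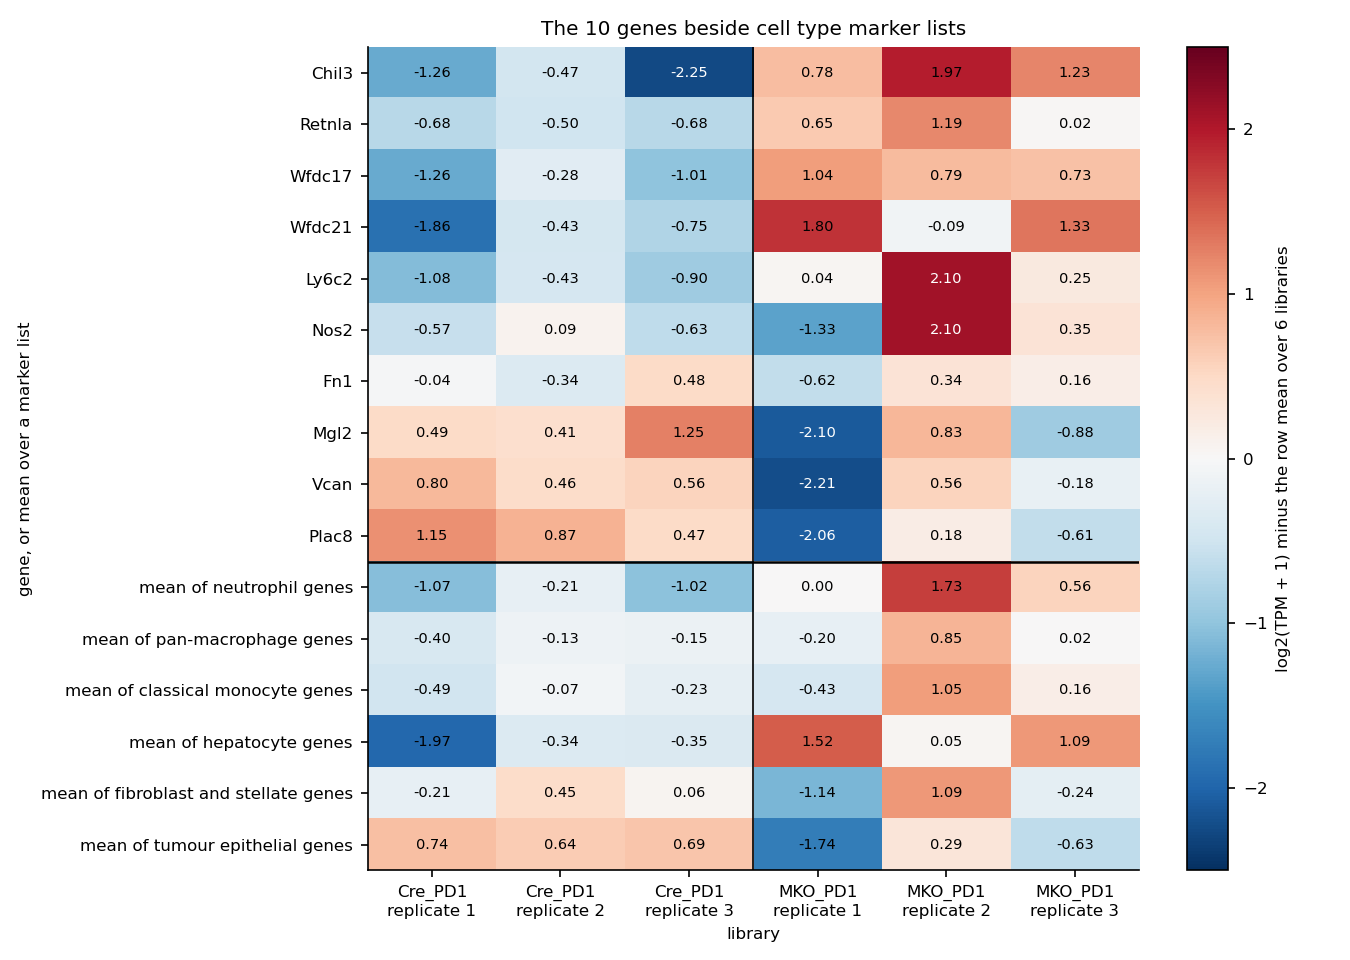
Log2(TPM + 1) of each of the 10 genes (above the black line) and of the mean over 6 lists of genes (below it) in each tumour, minus the row's own mean over the 6 tumours; red is above and blue below that mean. Chil3 and the neutrophil genes are highest in MKO_PD1 replicate 2, Wfdc21 and the hepatocyte genes in MKO_PD1 replicate 1, and Mgl2, Vcan, Plac8 and the tumour epithelial genes are lowest in MKO_PD1 replicate 1.

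Markers of other cells differed between the groups as well. Neutrophil markers, which include S100a8, Retnlg and Ngp, summed to 301 to 579 TPM in Cre_PD1 and 954 to 1653 TPM in MKO_PD1, and none of the 15 was at 0 in all tumours. Ly6g was the marker that did not reach the level needed for testing. Of the 14 tested, 8 were separated upwards and 0 downwards. Beside every count of this kind in this paragraph, 10.1% of all tested genes were separated upwards and 28.9% downwards. The summed pan-macrophage markers overlapped, at 2975 to 3885 TPM and 3534 to 7421 TPM, while 6 of the 14 genes were separated upwards and 0 downwards. The summed Kupffer cell markers also overlapped, at 304 to 661 TPM and 596 to 2563 TPM, with 4 of 10 genes separated upwards and 0 downwards. Markers of eosinophils, a source of interleukin 4, overlapped in sum at 40.7 to 110 TPM and 12.6 to 45.5 TPM, and of 4 tested 2 were separated upwards and 1 downwards. Basophil and mast cell markers were low but separated upwards, at 8.52 to 14.8 TPM and 15.0 to 36.3 TPM. Type 2 lymphocyte markers were lower in sum without overlap, at 67.2 to 144 TPM and 29.8 to 59.0 TPM. But of 7 tested 2 were separated upwards and 2 downwards, the latter near the share of all tested genes. Fibroblast and stellate cell markers, relevant to Vcan and Fn1, overlapped at 817 to 1332 TPM and 263 to 2450 TPM. The part of these cell contents in the levels of the 10 genes was not tested beyond the ratios given next.

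Ratios within each tumour set each gene beside the marker genes of 1 cell type, as the log2 level of the gene minus the mean log2 level of the list. Against 14 pan-macrophage genes, Chil3 was higher in every MKO_PD1 tumour, at -1.77 ± 0.12 against -3.97 ± 0.91, and so were Wfdc17 and Ly6c2. Mgl2, Plac8 and Vcan were lower in every MKO_PD1 tumour, Mgl2 at -4.75 ± 0.94 against -2.87 ± 0.43. Wfdc21, Nos2 and Fn1 overlapped. On this ratio 0.757% of all tested genes were separated upwards and 65.5% downwards. Retnla, which is plotted with the others, is left out of the counts of ratios, because with 0 reads in 2 controls its ratio there is the marker mean alone. The 10 genes were chosen on this contrast, so the shares are background and nothing is read from them.

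Against 14 neutrophil genes, Chil3 was the only gene of the 9 separated upwards, at 0.70 ± 0.29 in MKO_PD1 against -0.42 ± 0.58 in Cre_PD1. Wfdc17, at 3.84 ± 0.99 against 3.67 ± 0.10, and Ly6c2, at -0.86 ± 0.34 against -0.93 ± 0.17, overlapped, as did Wfdc21 and Nos2. Mgl2, Plac8, Vcan and Fn1 were separated downwards. Of all tested genes 0.0242% were separated upwards on this ratio and 81.1% downwards. Against 20 hepatocyte genes none was separated upwards, and Plac8 and Vcan were separated downwards, beside 0.0788% of all tested genes upwards and 68.8% downwards. On this ratio Chil3 was at -4.69 ± 1.36 in MKO_PD1 and -5.57 ± 1.33 in Cre_PD1. Relative to 9 tumour epithelial genes the genes that were low in MKO_PD1 overlapped: Plac8 was at 2.51 ± 0.17 against 2.79 ± 0.33, Mgl2 at -3.48 ± 0.49 against -3.43 ± 0.46 and Vcan at -2.45 ± 0.49 against -2.62 ± 0.12. The other 6 of the 9 were separated upwards, as were 69.1% of all tested genes, with 0.563% downwards.

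**Figure D3:**
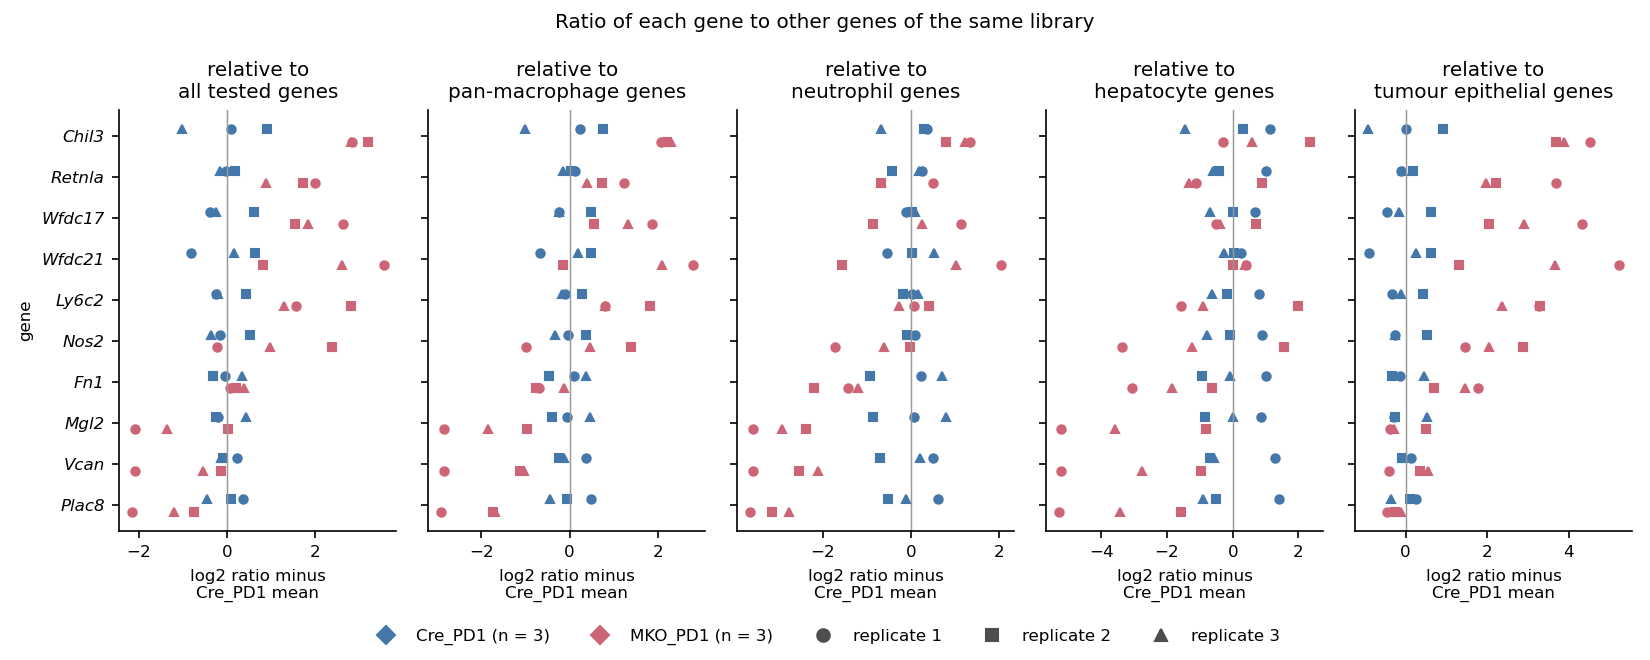
Log2 ratio of each gene to the mean of all tested genes or of a marker list in the same tumour, minus the mean of that ratio in Cre_PD1 (horizontal axes, log2 units, 0 is the Cre_PD1 mean), with 1 point per tumour, blue for Cre_PD1, red for MKO_PD1 and shapes for the replicate number. Chil3 stays to the right relative to macrophage and neutrophil genes, and Plac8, Vcan and Mgl2 lie around 0 relative to tumour epithelial genes.

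The genes most like Chil3 and Wfdc17 were sought among 12796 tested genes with the distance above. Those nearest to Chil3 were S100a8 at 0.42, Retnlg at 0.45 and Ngp at 0.47. S100a8 is a subunit of the calprotectin dimer of neutrophil cytoplasm, Retnlg is a resistin-like protein of neutrophils and Ngp is a granule protein, and all 3 are in the neutrophil marker list. S100a8 itself was at 29.1, 54.1 and 14.1 TPM in the controls and 58.7, 281 and 108 TPM in the MKO_PD1 tumours. The Cre_PD1 tumour with the least S100a8 was also the one with the least Chil3. Nearest to Wfdc17 were Cxcl1 at 0.13, a chemokine that recruits neutrophils, Fmo5 at 0.15, a liver monooxygenase, and Slc7a2 at 0.20, a transporter of arginine. Cxcl1 was at 10.8, 23.7 and 14.1 TPM in the controls and 55.8, 46.5 and 57.8 TPM in the MKO_PD1 tumours. Retnla was below the level needed for such a search.

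The rest of the pathway was read from 8 lists of genes, 121 in all without the 10, of which 109 were tested. None passed the adjusted threshold in limma, where the smallest adjusted p was 0.168, and none passed with voom on the recovered reads. At an unadjusted p under 0.05, limma gave 24, of which 17 were higher and 7 lower in MKO_PD1, where 8.47% of all tested genes were higher and 19.5% lower at that level. Those shares are the background of every list count at an unadjusted p. Voom gave 50 at an unadjusted p under 0.05, and 30.1% of the 16166 genes it tested. Without MKO_PD1 replicate 2, 39 of the 109 passed the adjusted threshold, 13 higher and 26 lower, below the 45.9% of 15940 genes that did so. Separation upwards was seen for 24 of the 109 (22.0%) and downwards for 5 (4.59%), beside 10.1% and 28.9% of all tested genes. The median log2 difference of the lists was 0.11 and that of all tested genes -0.42.

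**Figure D4:**
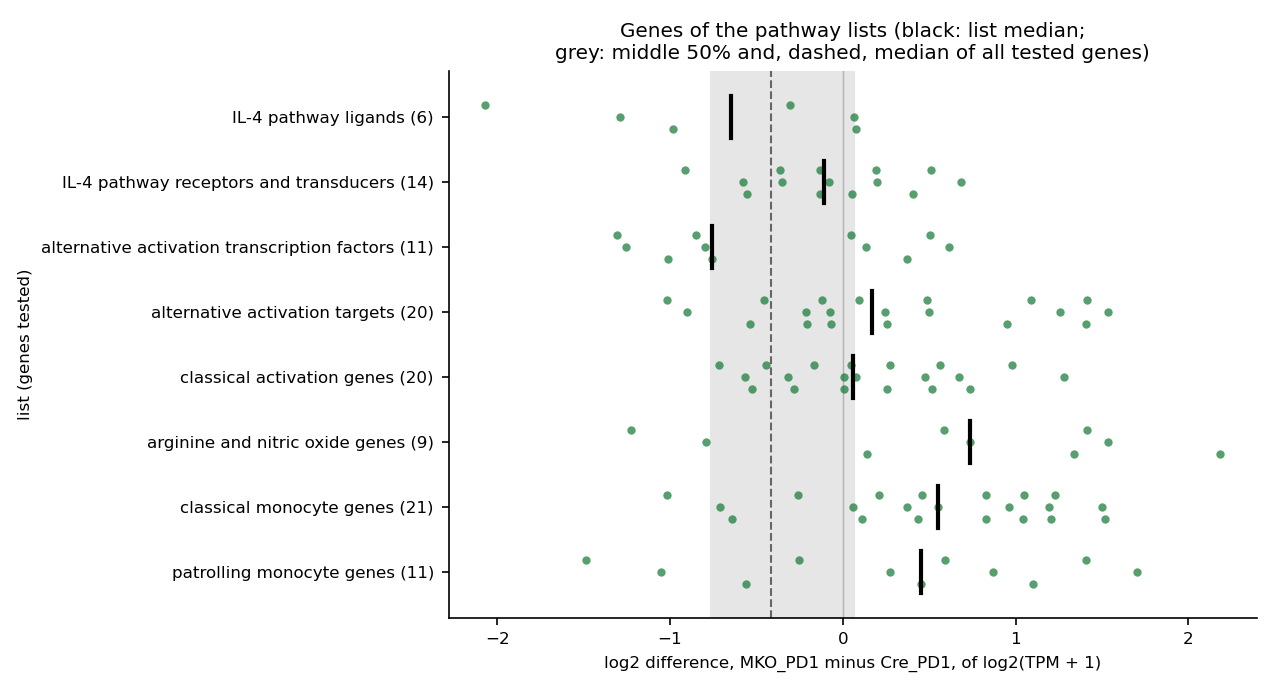
Log2 difference of log2(TPM + 1), MKO_PD1 minus Cre_PD1 (horizontal axis), for each tested gene of the 8 lists (points), with the list median in black and the middle 50% and median of all tested genes in grey. The arginine and nitric oxide genes have the highest list median, 0.74, and the transcription factors the lowest, -0.76.

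None of the 6 tested ligands of the pathway was separated upwards. Il4 itself was at 5.93, 5.84 and 9.21 TPM in the controls and 1.12, 6.36 and 3.01 TPM in the MKO_PD1 tumours, with overlapping groups, and Il13 was under 1 TPM in every tumour. Il33, the epithelial alarmin that drives type 2 responses, was separated downwards, at 559, 400 and 349 TPM against 30.97, 274 and 120 TPM (log2 difference -2.07, SE 0.69, limma adjusted p = 0.168). Tgfb1 was likewise separated downwards, with a log2 difference of -1.29 (SE 0.42). Of these ligands, 2 of 6 were at an unadjusted p under 0.05 and both were lower, as were 19.5% of all tested genes.

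Among 14 receptors and signal transducers, only Csf1r, the receptor for macrophage growth factor, was at an unadjusted p under 0.05, with a log2 difference of 0.69 (SE 0.25). Il4ra was at 150 ± 14.4 TPM in the controls and 91.1 ± 55.2 TPM in the MKO_PD1 tumours, and Il13ra1 at 149 ± 8.21 and 106 ± 40.6 TPM, both overlapping. Of 11 transcription factors of the program, Pparg and Kdm6b were at an unadjusted p under 0.05, both lower. The log2 difference was -1.31 (SE 0.44) for Pparg, the fatty acid sensing nuclear receptor, and -1.25 (SE 0.49) for Kdm6b, a histone demethylase. Of the 11, 2 were separated upwards and 1, Pparg, downwards, beside 10.1% and 28.9% of all tested genes. Maf, a factor of resident macrophages, was 1 of those separated upwards, at 28.9 ± 8.81 against 18.0 ± 1.09 TPM, but was not at an unadjusted p under 0.05.

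Of 20 tested targets of alternative activation other than the 10 genes, 3 were higher and 1 lower at an unadjusted p under 0.05, beside 8.47% and 19.5% of all tested genes. Arg1, the arginase that marks this state in mice and is also a urea cycle enzyme of hepatocytes, was at 399, 684 and 452 TPM in the controls and 1046, 1708 and 1307 TPM in the MKO_PD1 tumours. Its groups were well separated, with a log2 difference of 1.41 (SE 0.34) and a limma adjusted p of 0.168. Hepatocyte markers moved the same way between the groups, 14 of 20 separated upwards, beside 10.1% of all tested genes. Among the MKO_PD1 tumours the order was the reverse. Arg1 was highest in replicate 2, where the hepatocyte markers summed lowest. The part of hepatocyte content in the level of Arg1 was not tested. Slc7a2, which brings arginine into the cell, was at 30.99 ± 11.4 and 87.4 ± 1.27 TPM, and the eosinophil-type ribonuclease Ear2 at 19.2 ± 5.51 and 57.6 ± 30.7 TPM. For Ear2, MKO_PD1 replicate 2 was close to the highest control, at 24.6 against 22.8 TPM, with MKO_PD1 replicates 1 and 3 at 85.4 and 62.7 TPM. Cdh1, an adhesion protein shared with epithelium, was the lower one, with a log2 difference of -1.02 (SE 0.43).

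Arginine and nitric oxide genes had 5 of 9 tested at an unadjusted p under 0.05, all higher, beside 8.47% of all tested genes. Besides Arg1 and Slc7a2 they include Ass1 and Asl, which remake arginine from citrulline and are also abundant urea cycle enzymes of hepatocytes. Ass1 was at 67.9, 302 and 271 TPM in the controls and 1217, 408 and 1069 TPM in the MKO_PD1 tumours, the same order of MKO_PD1 tumours as the summed hepatocyte markers, among which it is listed. Gch1, which supplies the cofactor of Nos2, was at 27.2 ± 0.80 and 48.2 ± 18.0 TPM. Its levels were 26.5, 27.0 and 28.1 TPM in the controls and 66.6, 30.8 and 47.2 TPM in the MKO_PD1 tumours. That order of tumours was also the order of the summed hepatocyte markers. Among the MKO_PD1 tumours it was the reverse of the order of Nos2. The part of hepatocyte content in the level of Gch1 was not tested. Of 20 tested classical activation genes, Gch1 and Il1a, an alarm cytokine, were at an unadjusted p under 0.05, both higher, and the log2 difference of Il1a was 0.98 (SE 0.32).

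Classical monocyte genes gave 5 of 21 higher and 1 lower at that level, beside 8.47% and 19.5% of all tested genes. Cebpe, a factor of granulocyte maturation, was at 5.37 ± 2.73 and 12.8 ± 1.12 TPM. Hp, at 4046 ± 963 and 12354 ± 5859 TPM, and Mgst1 are listed with monocytes but are also liver products. Of 11 patrolling monocyte genes, 4 were higher and 1 lower. Cd36, a lipid scavenger receptor, was at 17.0 ± 3.63 and 57.8 ± 12.4 TPM (log2 difference 1.70, SE 0.28) and Treml4 at 9.48 ± 1.70 and 28.0 ± 10.9 TPM, while the muscle-type enolase Eno3 was lower, with a log2 difference of -1.48 (SE 0.51).

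Relatives of the 10 genes did not share 1 direction. Over all tested genes, 10.1% were separated upwards and 28.9% downwards. In the chitinase-like and resistin-like family, 2 of 9 relatives were tested, Chil1 at 1.03 ± 0.21 and 2.81 ± 1.38 TPM and Retnlg at 13.01 ± 7.09 and 52.6 ± 28.2 TPM, both separated upwards, and Chia1 and Retnlb were at 0 in all 6 tumours. Of 13 other Wfdc family genes, 5 were tested and 3 were separated downwards, against the direction of Wfdc17 and Wfdc21: Wfdc1, Wfdc2 and Wfdc3. The other 2 tested relatives had log2 differences above 0, with overlapping groups. Wfdc2, an epithelial secretory protein, was at 491 ± 47.3 and 167 ± 113 TPM. None of 5 tested Ly6 relatives was separated, and Ly6c1, the near copy of Ly6c2 that endothelium expresses, was at 143 ± 33.0 and 105 ± 113 TPM. Of 16 tested matrix partners of versican and fibronectin, 5 were separated downwards and 0 upwards, a share near the 28.9% of all tested genes. Log2 differences were -1.33 (SE 0.48) for the hyaluronan receptor Cd44, -2.06 (SE 0.67) for the proteoglycan Acan and -0.98 (SE 0.34) for the syndecan Sdc1, all 3 among those 5.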

How the data were processed

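The 10 genes and all gene lists were chosen with earlier results of these data known. Per the submitters' processing notes, reads were aligned with STAR 2.7.10a to mm10 and counted with featureCounts 2.0.3. The deposited table is named as TPM, but its columns sum to 70363 to 105281: the authors' deposited signal is a read count divided by exon length and by 1 constant, with whole reads (within 0.001) recovered for 98.5% of 29802 genes, Nos2 not among them. Each column was rescaled to 1000000, which makes TPM. The test was limma 3.58.1 in R 4.3.3 with a mean-variance trend on log2(TPM + 1), over genes reaching 1 TPM in 3 or more libraries, unpaired, adjusted by Benjamini-Hochberg over all 16506. SEs of the 10 genes come from this fit. Tested on simulated reads over 16070 genes, it called 99 of 100 genes changed 4-fold and 33 of 100 changed 2-fold, and 8.97% of its calls were unchanged genes. The simulation took changed genes only from those with many reads, gave every gene the same spread and held no difference in tissue content. Those shares therefore do not measure the power of the test in these tumours. With 1 read per kb worth 0.0763 to 0.114 TPM, levels near 0 rest on single reads. Genes of lists were named by smallest p, up to 4 per list, and relatives by range; 1 gene so named is not reported here. Ratios to neutrophil, hepatocyte, epithelial and fibroblast genes were chosen after seeing the data.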

Additional observations from a re-analysis of the deposited data

How the results depend on the processing

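Of all tested genes, 2 passed the adjusted threshold. The number was 0 without a filter, with a filter of 5 TPM, with voom and with the replicate block, and 1 with median-of-ratios scaling, quantile normalization, the values as deposited, and without MKO_PD1 replicates 1 and 3. Leaving out 1 library gave 0 to 7314, the latter without MKO_PD1 replicate 2, and 0 to 39 for the pathway lists. Median-of-ratios scaling moved the median log2 difference of all tested genes from -0.42 to -0.02. Replicate numbers did not pair the tumours (correlations of same-numbered deviations -0.42, -0.26 and 0.05). Separated members numbered 6 to 8 in the alternatives that changed the scaling or the tumours. Chil3 ranged from 1.68 to 3.31 and Wfdc17 from 1.50 to 2.19. Fn1 and, without MKO_PD1 replicate 2, Nos2 changed sign, as did Mgl2 without MKO_PD1 replicates 1 and 3. Depth limits Retnla.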

Other observations

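The following ratios between named pairs of related genes were chosen after their values were seen and are a description. Ly6c2 was at 0.0319, 0.0353 and 0.0247 of the TPM of Ly6c1 in Cre_PD1 and at 0.397, 0.164 and 0.165 in MKO_PD1, so the monocyte-type gene gained on its near copy in every MKO_PD1 tumour. Of the 50-base windows of Ly6c2 transcripts, 13.9% also occur in Ly6c1. Mgl2 was at 1.98, 2.18 and 3.87 times the TPM of Clec10a, the lectin gene Mgl1, in Cre_PD1 and at 0.449, 1.71 and 1.04 times in MKO_PD1. These groups were separated downwards although Mgl2 alone overlapped, and 12.2% of the Mgl2 windows occur in Clec10a. Chil3 was at 0.662, 0.596 and 0.382 of the TPM of Retnlg in Cre_PD1 and at 1.22, 0.884 and 0.848 in MKO_PD1, again without overlap. This did not hold for every neutrophil gene near Chil3. Chil3 was above Ngp in Cre_PD1 replicate 1, at 6.81 against 3.94 TPM. It was below Ngp in MKO_PD1 replicate 2, at 72.4 against 107 TPM, so the groups overlapped on that ratio. How the counting divided reads between near copies is not given in the sources used here.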
